A study of Homo sapiens with 9 samples.

Results

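The human genome assembly holds sequence that is not part of any finished chromosome, and γH2AX regions called on it were examined together with those on the mitochondrial genome. Members were the regions whose sequence name began with GL or was hs37d5 or MT, taken from the region lists of all 8 γH2AX libraries. They numbered 1680 of 234983 regions. Of these, 816 lay on 19 GL contigs, 861 on the decoy hs37d5 and 3 on the mitochondrial genome, MT. The assay was ChIP-seq, in which DNA bound by an antibody is sequenced, and the cells were K562, an established human myelogenous leukaemia line. The 4 groups held 2 libraries each: FANCL knockout cells treated with 5 nM PMA (KO PMA), mock-treated FANCL knockout cells (KO mock), wild-type cells treated with 5 nM PMA (WT PMA) and mock-treated wild-type cells (WT mock), with treatment for 72 h. One input library came from WT mock cells, and regions in all 8 libraries were called against it. The labels give no number of knockout clones and leave unsaid whether the 2 replicates of a group were grown separately. The p-values therefore refer to the spread among libraries, and that spread may be technical.

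γH2AX is the histone H2AX carrying a phosphate near its end, and it spreads over chromatin around DNA breaks and stalled replication forks. FANCL is the ubiquitin ligase of the Fanconi anaemia core complex, which acts in the repair of DNA crosslinks. PMA is a phorbol ester that activates protein kinase C and drives K562 cells towards the megakaryocytic lineage. GL contigs are pieces of the reference assembly whose chromosome is unknown (unplaced) or known without a position (unlocalised). Many carry repeats, and GL000220.1 carries ribosomal DNA (rDNA), the tandem genes for the ribosomal RNA precursor that are transcribed by RNA polymerase I in the nucleolus. The decoy hs37d5 joins human sequence absent from the chromosomes of the assembly, and is added to an alignment so that reads from it are not forced onto similar chromosomal sites. The mitochondrial genome is a small circle packaged by TFAM rather than by histones. RefSeq annotates 37 genes on it, of which 13 code for proteins, 22 for transfer RNAs and 2 for ribosomal RNAs.

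In these data PMA-treated cells had much less called γH2AX on the contigs and decoy than mock-treated cells, in both genotypes, while the chromosomes had more. The rDNA contig carried a block that was called at length in KO mock cells, and the mitochondrial genome was called along nearly its whole length in KO PMA cells. Called regions are the only places with a value: a stretch that was not called has no measurement in the lists. A library had 15.6 to 27.2 M (mega) tags and the input 18.6 M. The lowest tag number a window needed ran from 5.89 per 10 M tags in WT PMA replicate 1 to 7.69 in KO mock replicate 2. The caller's approximate pull-down efficiency was 7.96 and 6.69% in KO PMA, 3.42 and 3.67% in KO mock, 4.69 and 4.24% in WT PMA, and 1.55 and 1.39% in WT mock. It separated the 4 groups without overlap, with both PMA groups above both mock groups. How far it shaped the calls was not tested.

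Regions on the contigs and decoy covered 100.3 and 88.4 kb in the KO PMA libraries, 316.5 and 332.5 kb in KO mock, 117.5 and 101.1 kb in WT PMA, and 224.5 and 237.0 in WT mock. The 4 PMA libraries therefore lay below the 4 mock libraries without overlap, and KO mock was the highest group on contigs and decoy together. Covered length was 0.373-fold in PMA-treated against mock-treated cells (log2 difference −1.42, exact permutation test within genotype, two-sided, p = 0.0556). That is the smallest p these 36 labellings allow, and with Benjamini-Hochberg adjustment over 20 such tests it was 0.0794. Against WT, KO cells had 1.10-fold the covered length (exact permutation p = 0.389). This direction turned round when regions were limited to those at least 6-fold over input (log2 difference −0.12), at least 1000 bp long (−0.041), or to equal region numbers per library (−0.19), and on GL contigs alone (−0.46), an alternative chosen after seeing the data. GL contigs alone covered 39.8 and 39.5 kb in KO PMA, 147.2 and 145.8 kb in KO mock, 82.4 and 66.2 kb in WT PMA, and 155.7 and 145.4 in WT mock, so that the mock groups overlapped there and KO mock was highest with the decoy included.

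The numbers of regions followed the same order of treatments, with 131 and 114 in KO PMA, 344 and 349 in KO mock, 123 and 127 in WT PMA, and 242 and 247 in WT mock. Their summed tags, per 10 M tags of the library, were 2659 and 2804 in KO PMA, 20503 and 23938 in KO mock, 2758 and 2415 in WT PMA, and 5444 and 6578 in WT mock. Without GL000220.1, an alternative chosen after seeing the data, the sums were 1985 and 1730 in KO PMA, 6604 and 8199 in KO mock, 2505 and 2057 in WT PMA, and 4606 and 5897 in WT mock. Most of the tags in KO mock therefore came from the rDNA contig, and KO mock was still the highest group without it.

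On chromosomes 1 to 22 and X the same lists moved in the other direction with PMA, to 2.64-fold the covered length of mock-treated cells (exact permutation p = 0.0556). As a share of each library's covered length, the contigs and decoy made up 0.235 and 0.256% in KO PMA, 1.81 and 1.88% in KO mock, 0.374 and 0.406% in WT PMA, and 2.28 and 2.81% in WT mock. Within each treatment both KO libraries had a smaller share than both WT libraries, and within each genotype both PMA libraries a smaller share than both mock libraries. On the chromosomes KO cells had 1.63-fold the covered length of WT cells (exact permutation p = 0.0556), against 1.10-fold on the contigs and decoy. The smaller KO share thus went with more covered length on the chromosomes. The ratio of covered length on the contigs and decoy to that on the chromosomes was 0.140-fold in PMA-treated against mock-treated cells and 0.674-fold in KO against WT cells (exact permutation p = 0.0556 each, adjusted p = 0.0794 each). For KO against WT the log2 difference of this ratio ranged from −1.31 to −0.025 over all alternatives. This ratio was taken within each library.

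**Figure D1:**
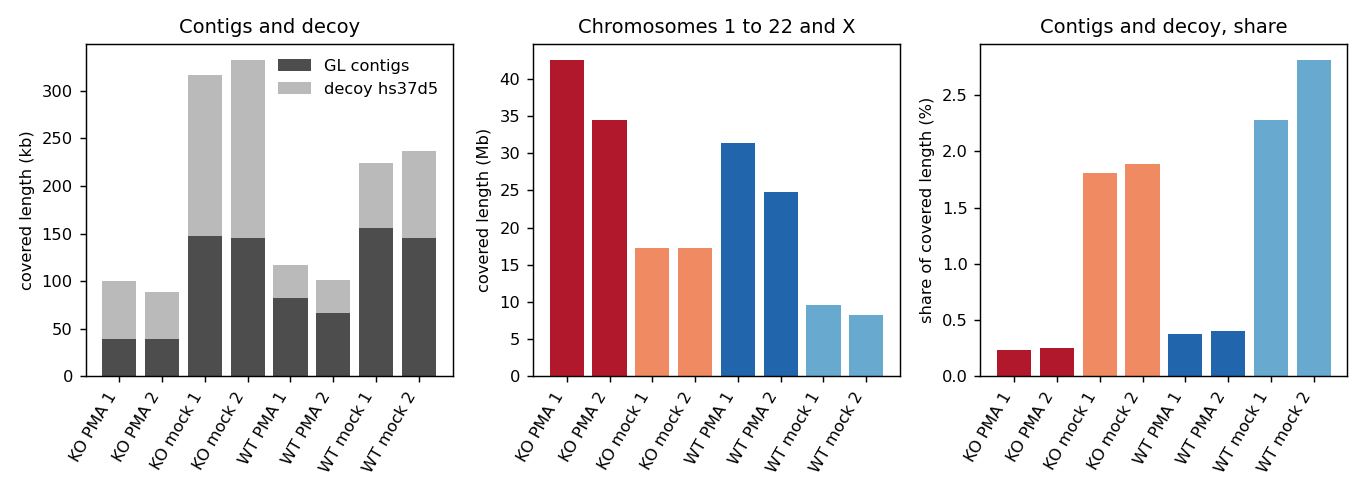
Length covered by γH2AX regions on the GL contigs and decoy hs37d5 in kb (left), on chromosomes 1 to 22 and X in Mb (middle), and the contigs and decoy as a percentage of each library's covered length (right), 1 bar per library. The PMA libraries have less on the contigs and decoy and more on the chromosomes than the mock libraries of the same genotype.

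Regions on the contigs and decoy also differed from those on the chromosomes in the same library, a set of 4 contrasts chosen after seeing the data. Their tag density lay between 23.5 and 72.0 tags per kb, against 14.9 to 19.8 tags per kb on the chromosomes, a mean of 1.91-fold and higher in 8 of 8 libraries (exact sign-flip permutation p = 0.00781, adjusted over the 4 contrasts 0.0104). Input density in the same regions was 7.98 to 28.9 tags per kb, against 3.40 to 5.19 tags per kb on the chromosomes, a mean of 2.82-fold and again higher in 8 of 8 libraries (exact sign-flip permutation p = 0.00781). All 8 input values were read from the 1 input library, over the regions of each γH2AX library. They are not independent, and this p does not measure a spread among inputs. Since a call needed 2-fold over that input, the tag densities and folds are tied to it as well. The contig regions thus held more tags of both kinds per kb, and the median of the authors' fold over input was lower, at 3.26 to 3.56 against 4.07 to 4.92 on the chromosomes (0.753-fold, lower in 8 of 8 libraries, exact p = 0.00781). Median region length did not separate them over all libraries (1.09-fold, higher in 4 of 8 libraries, exact p = 0.125). Those 4 were the mock libraries, at 627 to 634 bp on the contigs and decoy against 500 bp on the chromosomes. In the PMA libraries both medians were 500 bp, except for 626 bp on the chromosomes in KO PMA replicate 1. The plot of tag density against input density shows every region of this set, with a block of GL000220.1 and MT at its upper right.

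**Figure D2:**
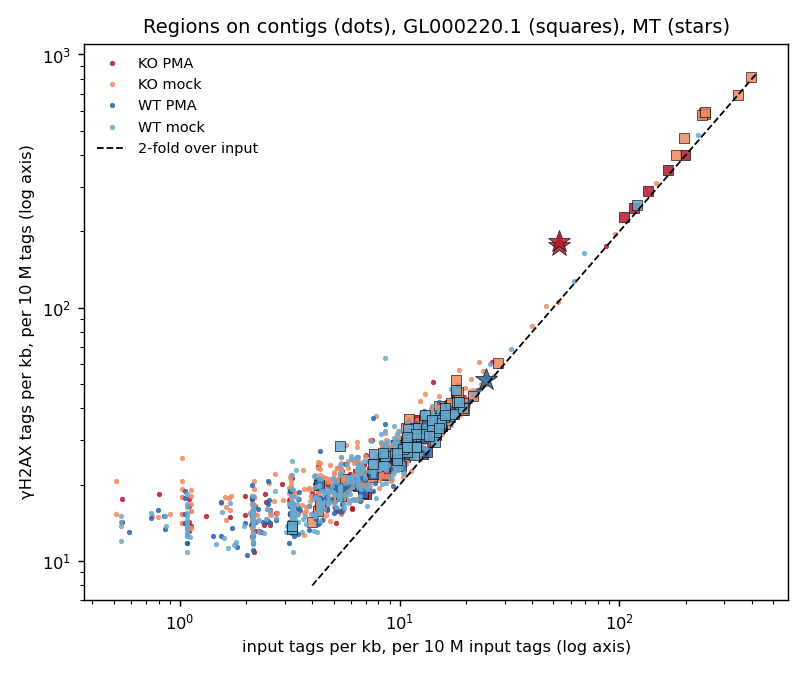
γH2AX tags per kb (y axis, per 10 M tags, log axis) against input tags per kb in the same region (x axis, per 10 M input tags, log axis) for every called region on the contigs and decoy (dots), GL000220.1 (squares) and MT (stars), coloured by group. The dashed line marks 2-fold over input, and most regions with an input above 10 tags per kb lie close to it; the 2 long MT regions of KO PMA lie further above it, at 3.29-fold and 3.39-fold.

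Called regions overlapping between libraries were merged into stretches. There were 786 stretches on the contigs and decoy, of which 456 were called in 1 library, 330 in 2 or more and 10 in all 8. Of the 19 GL contigs, 6 had a region in all 8 libraries. All 19 had one in a KO mock library, against 9 in KO PMA, 7 in WT PMA and 8 in WT mock libraries. The 19 were those with a region in any library, and 9 of them were called in KO mock libraries alone. The count of 19 in KO mock is therefore partly built in. Of these 9 contigs, 2 were called in both KO mock libraries and 7 in 1 library. These 7 had at most 2 regions each, so presence in 1 library is a matter of single windows.

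GL000220.1, an unplaced contig with rDNA, had 15 and 17 regions in KO PMA, 28 and 20 in KO mock, 12 and 17 in WT PMA, and 27 and 21 in WT mock. They covered 10.4 and 12.4 kb in KO PMA libraries, 42.9 and 40.3 kb in KO mock, 9.29 and 12 kb in those of WT PMA, and 26.8 and 17 in WT mock. The 2 KO mock libraries were the highest and did not overlap any other group, and the 4 PMA libraries were the lowest. Covered length fell in KO PMA against KO mock (log2 difference −1.78 ± 0.25 SE, limma adjusted p = 0.00194) and in WT PMA against WT mock (−0.95 ± 0.25 SE, limma adjusted p = 0.0166). It rose in KO mock against WT mock (0.93 ± 0.25 SE, limma adjusted p = 0.0197), and was 0.10 ± 0.25 in KO PMA against WT PMA (limma adjusted p = 0.827). The rise in KO mock was lost without KO mock replicate 1 (0.88), KO mock replicate 2 (0.97) or WT mock replicate 2 (0.61), and when libraries were centred on their median sequence (0.10). The fall in WT cells was lost without WT PMA replicate 1 (−0.78).

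Summed tags on GL000220.1 were 675 and 1074 per 10 M in KO PMA, 13899 and 15739 in KO mock, 253 and 358 in WT PMA, and 838 and 681 in WT mock. The KO mock sums were thus at least an order of magnitude above those of the other groups, and amounted to 4.07 and 4.29% of all tags inside regions of those libraries, against 0.540 and 0.490% in WT mock. Tag density over its regions was 65.1 and 86.4 tags per kb in KO PMA, 324 and 391 in KO mock, 27.2 and 29.8 in WT PMA, and 31.3 and 40.2 in WT mock. These densities are over regions called separately in each library and so over different stretches. Before the stretch called in no library, density was 28.6 and 31.9 tags per kb in KO PMA, 35.0 and 35.0 in KO mock, 27.2 and 29.8 in WT PMA, and 31.3 and 30.8 in WT mock, so the high KO densities came from the block after it.

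This density came from one side of the contig. Regions on GL000220.1 fell on both sides of a stretch of 13416 bp, from base 104465 to base 117881, that was called in no library. Before it, regions covered 8.80 and 10.1 kb in KO PMA, 20.4 and 15.2 kb in KO mock, 9.29 and 12 kb in WT PMA, and 26.8 and 16.3 in WT mock, so that KO mock and WT mock overlapped there. After it, they covered 1.57 and 2.31 kb in KO PMA, 22.5 and 25.1 kb in KO mock, nothing in either WT PMA library, and 0 and 0.711 kb in WT mock. This division was made after seeing the data.

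The block after the gap ran from base 117881 to base 146189. Where the ribosomal RNA genes of the contig lie relative to the block and the gap was not determined. In KO mock replicate 1 the block was called as 5 regions, the longest from 121009 to 130006 (8997 bp, 5267 tags per 10 M, 2.42-fold over input by the authors' value). In KO mock replicate 2 it was called as 3 regions, the longest from 117881 to 129679 (11798 bp, 6789 tags per 10 M, 2.42-fold). Both replicates also had a region of nearly the same span, 130809 to 138472 in replicate 1 and 130800 to 138470 in replicate 2. The 2 versions of this region thus nearly coincided between the KO mock replicates, while KO PMA had only 2 and 3 short regions there and WT mock replicate 2 had 1, from 132625 to 133336.

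Input density was high in this block. γH2AX density over its called regions was 269 and 326 tags per kb in KO PMA, 586 and 607 in KO mock and 253 in WT mock replicate 2. The input in the same regions had 126 and 157 tags per kb for KO PMA, 251 and 264 for KO mock and 120 for WT mock replicate 2. Since a call needed 2-fold over input, regions of the KO mock extent needed at least 503 and 529 tags per kb to be called. The values stood just above that limit, at 2.33-fold and 2.30-fold over input summed over the block. The input came from WT mock cells only, so a KO line with a different number of rDNA copies cannot be told apart from a different amount of γH2AX per copy.

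For the bin of GL000220.1 from 100001 to 200000, which holds the block, covered length rose in KO mock against WT mock by 4.05 ± 0.16 SE on the log2 scale (limma adjusted p = 0.000778). It also rose in KO PMA against WT PMA (2.0 ± 0.16 SE, limma adjusted p = 0.00113). The covered lengths behind these were 2.84 and 3.19 kb in KO PMA, 24.5 and 26.7 kb in KO mock, 0 kb in both WT PMA libraries, and 0.5 and 0.711 kb in WT mock. Both KO groups were thus above both WT groups without overlap. These log2 values are on log2(covered bp + 1000), which understates changes from little or no coverage.

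**Figure D3:**
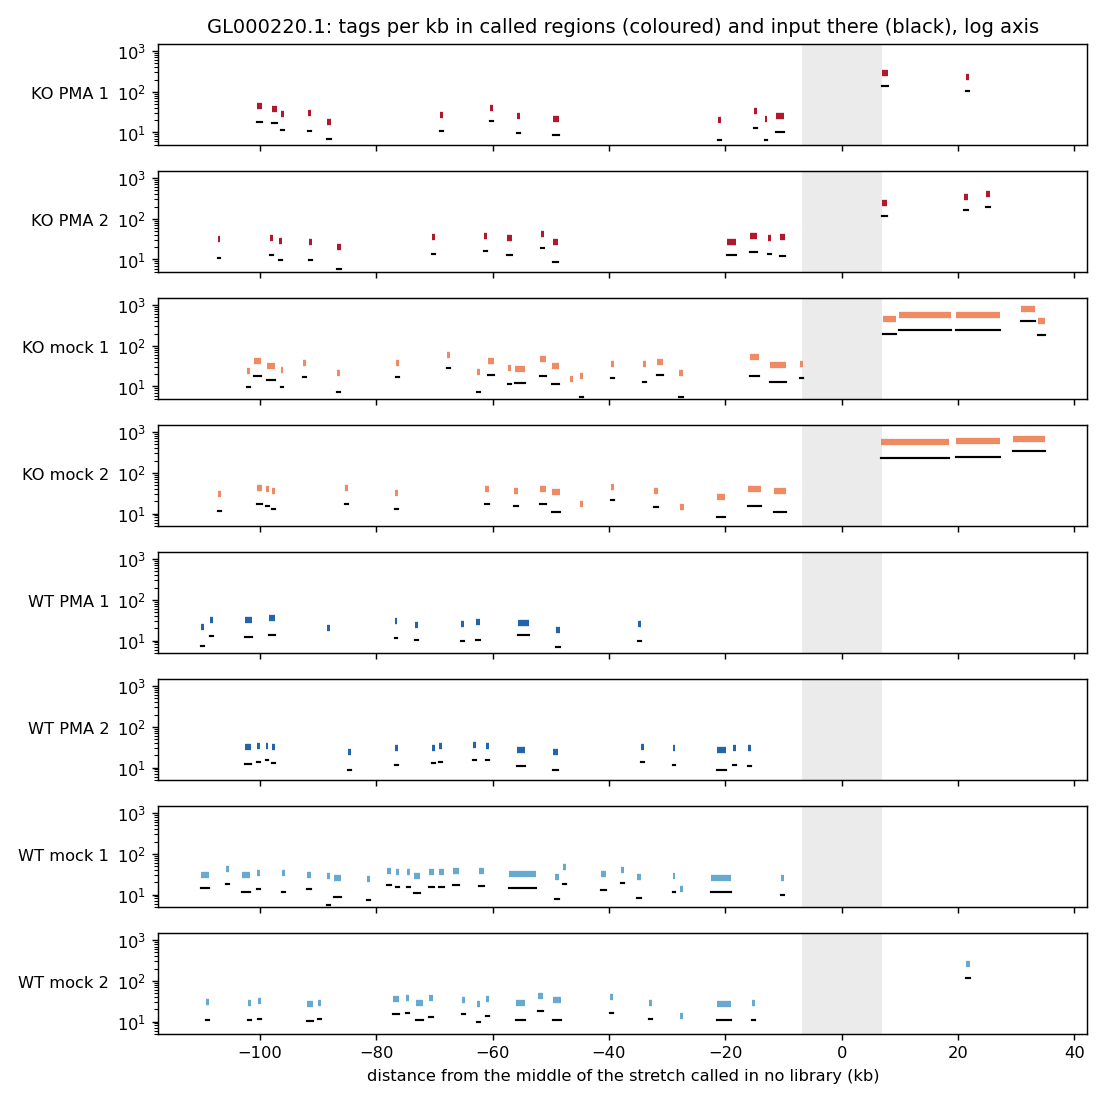
Called γH2AX regions on GL000220.1, 1 row per library, placed by distance in kb from the middle of the stretch called in no library (grey). Coloured segments give tags per kb and black segments the input in the same region, per 10 M tags on a log axis; the block to the right of the gap is called at 399 to 817 tags per kb over most of its length in the KO mock libraries, and in short pieces or not at all in the others.

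Before the gap, 3 stretches of GL000220.1 were called in all 8 libraries. The one from 53621 to 58697 had 12.6 and 28.1 tags per 10 M in KO PMA, 64.5 and 23.1 in KO mock, 53.3 and 40.1 in WT PMA, and 149 and 45.3 in WT mock. The one from 47874 to 51464 had 19.7 and 18.8 tags in KO PMA, 57.8 and 25.6 in KO mock, 18.0 and 40.7 in WT PMA, and 35.1 and 31.3 in WT mock. The one from 61347 to 62909 had 23.5 and 25.6 tags in KO PMA, 42.7 and 48.7 in KO mock, 14.7 and 23.6 in WT PMA, and 20.5 and 47.5 in WT mock. KO mock and WT mock overlapped at each of these stretches, and did not in the block after the gap. Their fold over input lay between 2.02 and 3.46.

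The decoy hs37d5 was the member with the most covered length on average over the 8 libraries, although in WT PMA replicate 1 GL000195.1 covered more (38.5 against 35.1 kb). Its regions covered 60.5 and 48.9 kb in KO PMA, 169 and 187 kb in KO mock, 35.1 and 34.9 kb in WT PMA, and 68.8 and 91.6 in WT mock. No 2 groups overlapped, with KO above WT in each treatment and mock above PMA in each genotype. KO against WT was 2.22-fold in mock-treated and 1.54-fold in PMA-treated cells. On chromosomes 1 to 22 and X covered length was also higher in KO cells, at 1.94-fold and 1.37-fold. The decoy fell in KO PMA against KO mock (−1.69 ± 0.18 SE, limma adjusted p = 0.000674) and in WT PMA against WT mock (−1.16 ± 0.18 SE, limma adjusted p = 0.00186), and rose in KO mock against WT mock (1.15 ± 0.18 SE, limma adjusted p = 0.00299). It also rose in KO PMA against WT PMA (0.62 ± 0.18 SE, limma adjusted p = 0.0276), a call that was lost without KO PMA replicate 1 (0.47), without either KO mock library (0.62 each) and without WT PMA replicate 1 (0.63) or 2 (0.62). With libraries centred on their median sequence both KO against WT calls were lost, with log2 differences of 0.37 in PMA-treated and 0.32 in mock-treated cells.

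The decoy held 70 and 57 regions in KO PMA, 214 and 225 in KO mock, 50 and 46 in WT PMA, and 90 and 109 in WT mock. Their summed tags were 1281 and 1081 per 10 M in KO PMA, 3940 and 5309 in KO mock, 587 and 654 in WT PMA, and 1419 and 2753 in WT mock. The order of groups was therefore the same for regions, length and tags. Of its 523 stretches 347 were called in 1 library, and 1, from 14395436 to 14400709, in all 8. That stretch had 131 and 101 tags per 10 M in KO PMA, 82.0 and 116 in KO mock, 15.1 and 52.5 in WT PMA, and 10.9 and 8.98 in WT mock. There every KO library lay above every WT library, and the WT mock libraries were the lowest. The stretch from 32886400 to 32889806 was called in 7 libraries, with 59.7 and 47.5 tags in KO PMA, 62.9 and 49.3 in KO mock, 27.2 and 62.5 in WT PMA, and 27.4 in WT mock replicate 2 alone. The stretch from 18418762 to 18420982 was called in 6, with 85.4 and 75.6 tags in KO PMA, 41.0 and 17.9 in KO mock, 31.8 in WT PMA replicate 2 and 19.2 in WT mock replicate 2. The KO PMA libraries were the highest at this last stretch, in contrast to the decoy as a whole.

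The 6 other contigs with the most covered length did not share one pattern. GL000224.1, unplaced, covered 8.60 and 9.01 kb in KO PMA, 52.7 and 52.1 kb in KO mock, 12.6 and 11 kb in WT PMA, and 36.7 and 53.5 in WT mock. It fell with PMA in KO cells (−2.45 ± 0.20 SE, limma adjusted p = 0.00031) and in WT cells (−1.83 ± 0.20 SE, limma adjusted p = 0.000643), while the mock groups of the genotypes overlapped. In the few regions at least 6-fold over input the KO value had the opposite sign, at 0.60. GL000205.1, unlocalised on chromosome 17, covered 1.64 and 1.13 kb in KO PMA, 11.6 and 13 kb in KO mock, 4.49 and 3.8 kb in WT PMA, and 23.6 and 17.9 in WT mock. It fell with PMA in KO cells (−2.48 ± 0.18 SE, limma adjusted p = 0.000252) and in WT cells (−2.07 ± 0.18 SE, limma adjusted p = 0.000641), and KO lay below WT without overlap in both treatments.

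GL000214.1, unplaced, had the largest fall in KO against WT cells among the 13 sequences tested on contigs and decoy, in both treatments. It covered 1.33 and 1.5 kb in KO PMA, 2.78 and 2.82 kb in KO mock, 7.72 and 7.59 kb in WT PMA, and 22.8 and 17.6 in WT mock. No 2 groups overlapped: both KO groups lay below both WT groups. It fell in KO mock against WT mock (−2.47 ± 0.13 SE, limma adjusted p = 5.95e-05) and in KO PMA against WT PMA (−1.84 ± 0.13 SE, limma adjusted p = 0.00026). It also fell with PMA in WT cells (−1.28 ± 0.13 SE, limma adjusted p = 0.000643), where the few regions at least 6-fold over input gave 0.085, and in KO cells (−0.65 ± 0.13 SE, limma adjusted p = 0.00631).

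GL000195.1, unlocalised on chromosome 7, passed no test of PMA against mock on the lengths as reported. With libraries centred on their median sequence, GL000195.1 was called lower with PMA in both genotypes. It covered 13.4 and 9.8 kb in KO PMA, 12.7 and 13.1 kb in KO mock, 38.5 and 25.2 kb in WT PMA, and 31.4 and 26.3 in WT mock. KO lay below WT in both treatments without overlap, and the PMA and mock groups of each genotype overlapped. Covered length fell in KO PMA against WT PMA (−1.37 ± 0.25 SE, limma adjusted p = 0.00602) and in KO mock against WT mock (−1.10 ± 0.25 SE, limma adjusted p = 0.011). The second of these calls was lost without KO mock replicate 1 (−1.08), KO mock replicate 2 (−1.12) or WT mock replicate 1 (−0.98). For PMA against mock the 95% intervals of the log2 difference ran from −0.79 to 0.48 in KO cells and from −0.52 to 0.75 in WT cells. Its longest region, 12997 bp in WT PMA replicate 1, was the longest on any contig or the decoy.

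GL000219.1, unplaced, covered 1.81 and 3.03 kb in KO PMA, 10.8 and 10.9 kb in KO mock, 9.82 and 6.16 kb in WT PMA, and 13.9 and 12.6 in WT mock. It fell with PMA in KO cells (−1.81 ± 0.26 SE, limma adjusted p = 0.00194), and the WT value, −0.69 ± 0.26, did not pass (limma adjusted p = 0.0545). KO PMA lay below WT PMA (−1.39 ± 0.26 SE, limma adjusted p = 0.00602). GL000194.1, unlocalised on chromosome 4, ran the other way between genotypes, with 1.17 and 2.62 kb in KO PMA, 3.57 and 4.33 kb in KO mock, 0 and 0.5 kb in WT PMA, and 0 and 0.5 in WT mock. It rose in KO mock against WT mock (2.01 ± 0.35 SE, limma adjusted p = 0.00443) and in KO PMA against WT PMA (1.19 ± 0.35 SE, limma adjusted p = 0.0276). The KO PMA call was lost without KO PMA replicate 2 (0.83), either KO mock library (1.19 each) or WT PMA replicate 1 (0.90).

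**Figure D4:**
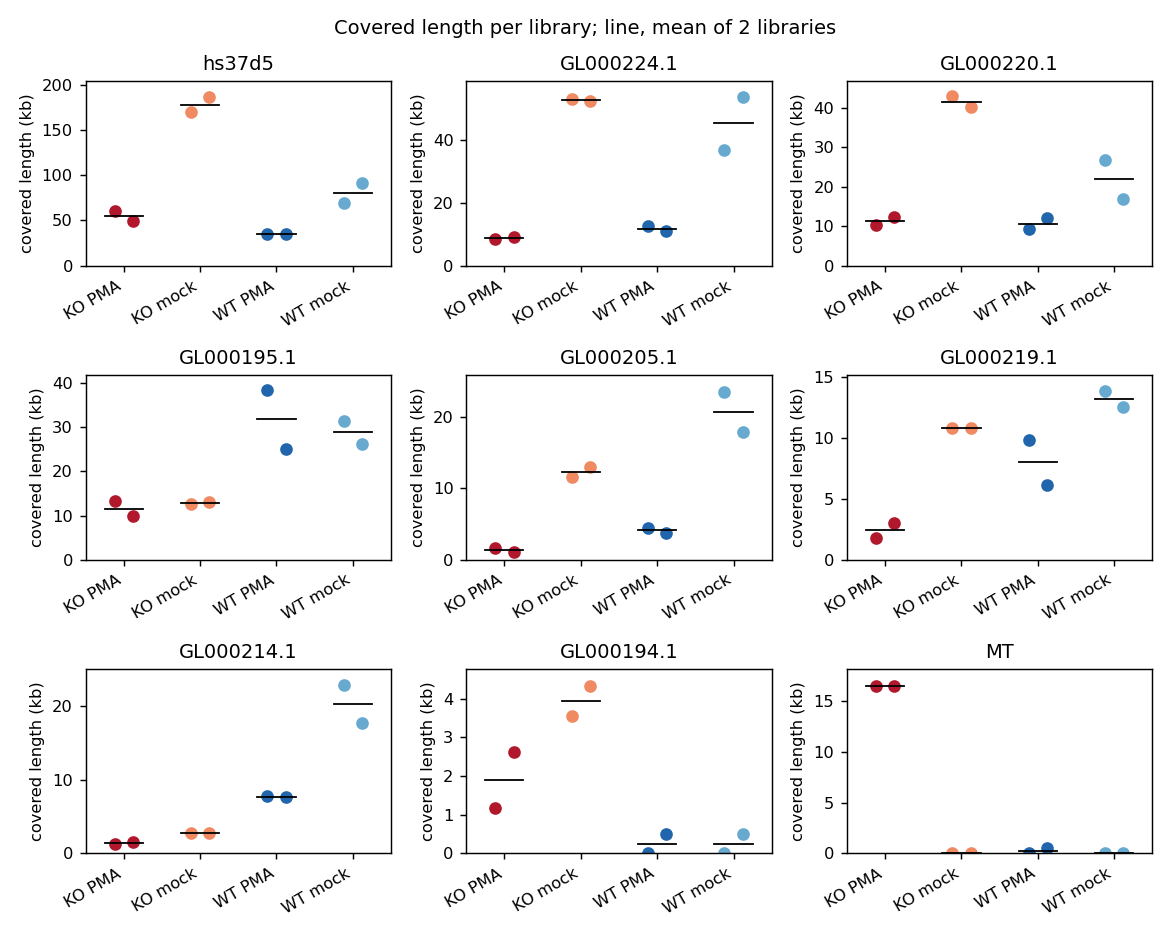
Covered length in kb (y axis) on the decoy, GL000220.1, the 6 other contigs with the most covered length, and MT, with 1 point per library and a line at the mean of 2 libraries per group. KO mock is highest on hs37d5 and GL000220.1, WT mock is highest on GL000205.1, GL000219.1 and GL000214.1, and MT is covered in KO PMA.

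Smaller contigs were called mainly in KO mock. GL000237.1 covered 1.96 and 2.42 kb in KO mock and nothing in the other 6 libraries (KO mock against WT mock 1.67 ± 0.07 SE, limma adjusted p = 3.33e-05). It passed the 2-library filter through KO mock alone, so this call is no independent support. Its small SE reflects 0 bp in every library of the other groups. GL000218.1 covered 1 and 0 kb in KO PMA, 1.91 and 2.15 kb in KO mock, and nothing in the 4 WT libraries (KO mock against WT mock 1.60 ± 0.31 SE, limma adjusted p = 0.00665), a call lost without KO mock replicate 2 (1.54). GL000225.1 covered 2.63 and 1.5 kb in KO mock, 0.5 kb in WT mock replicate 1 and nothing elsewhere (KO mock against WT mock 1.30 ± 0.25 SE, limma adjusted p = 0.00626). All 3 lie at or below 2.63 kb per library, which is a handful of 500-bp windows. GL000212.1 covered 0.5 and 1.37 kb in KO mock only, and each of the other 8 contigs at most 1 kb in any library.

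Of the 38 sequences tested, 13 were GL contigs or the decoy. In KO PMA against KO mock 10 of the 13 fell, where 28.9% of all sequences were called lower, and 0 rose, where 50% were called higher. Among the 10, GL000212.1 and GL000237.1 were covered in KO mock alone and passed the 2-library filter through it. In WT PMA against WT mock 5 of 13 fell (13.2% of all) and 0 rose (57.9% of all). The shares over all sequences include the 13. The members made up 10 of the 11 sequences called lower in KO cells, and 5 of the 5 in WT cells. At an unadjusted p below 0.05, limma gave 10 lower and 0 higher in KO cells and 6 lower and 0 higher in WT cells. The median log2 difference over the 13 was −1.59 in KO and −0.29 in WT cells, against 0.47 and 1.16 over all sequences. With libraries centred on their median sequence 13 of 13 were called lower in KO cells, GL000202.1 among them with a difference of 0 before centring. In WT cells centring gave 9 lower among the 9 covered in at least 1 WT library. The other 4 had 0 bp in all 4 WT libraries and were moved by the centring constant alone, and 0 rose in either genotype.

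Between genotypes the 13 went both ways. In KO mock against WT mock 7 of 13 rose, where 60.5% of all sequences were called higher, and 3 fell, where 13.2% were called lower. The 3 were among the 5 sequences called lower. The 7 that rose include GL000212.1 and GL000237.1, which passed the 2-library filter through KO mock alone. In KO PMA against WT PMA 2 rose (36.8% of all) and 4 fell (28.9% of all). The 3 that fell in mock-treated cells, GL000195.1, GL000205.1 and GL000214.1, also fell in PMA-treated cells together with GL000219.1. Centred libraries gave 3 higher and 5 lower in mock-treated cells, and 1 higher and 5 lower in PMA-treated cells. Without KO mock replicate 1, KO mock replicate 2 or WT mock replicate 1, the number lower in KO mock was 1. The number higher in KO PMA was 1 without KO PMA replicate 1 or WT PMA replicate 2, and 0 without KO mock replicate 1, KO mock replicate 2 or WT PMA replicate 1.

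**Figure D5:**
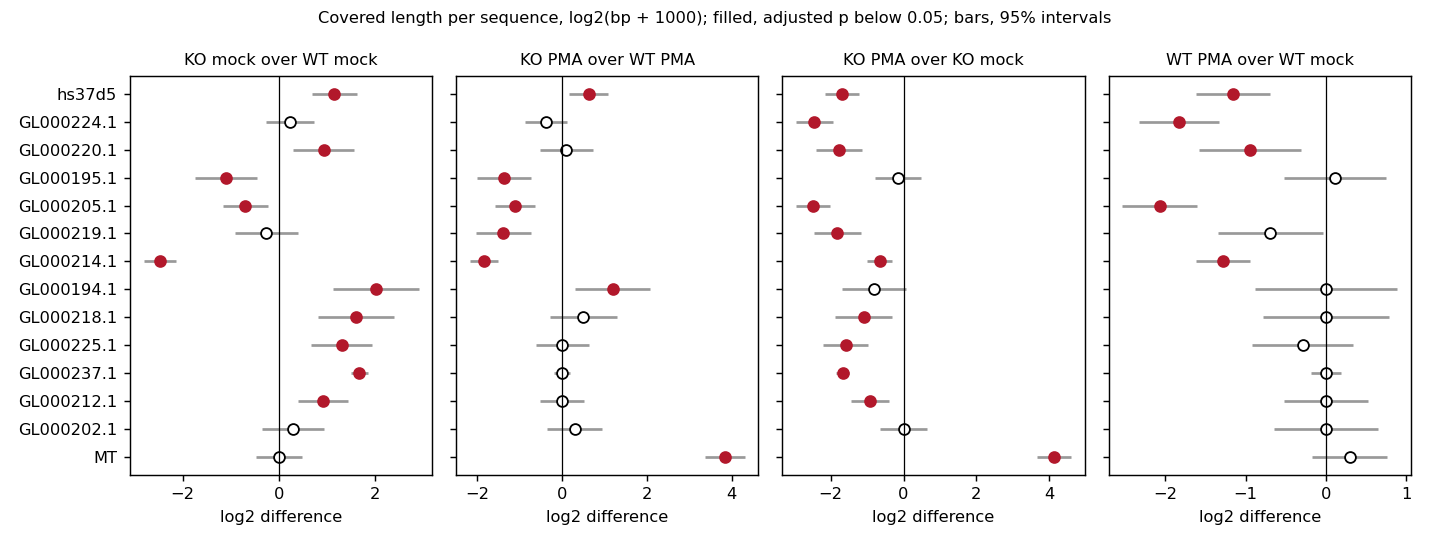
Log2 difference in covered length (x axis, log2(bp + 1000)) with 95% intervals for the decoy, the 12 GL contigs tested and MT, in 4 comparisons. Filled points passed a limma adjusted p of 0.05; no contig passed to the right of 0 in either PMA against mock panel, nor did the decoy, and MT lies far to the right in KO PMA against both KO mock and WT PMA.

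Covered length was also tested in bins of 100 kb, each covered in at least 2 libraries. Bins covered in 1 group alone, such as the decoy bins from 5400001 and 6300001, passed this filter through that group. Of 9703 bins tested, 148 lay on the contigs or decoy (member bins), 129 of them on the decoy and 19 on GL contigs. In KO PMA against KO mock, 51 member bins fell (34.5% of the 148, against 5.81% of all bins) and 1 rose (13% of all bins). In WT PMA against WT mock 28 fell (18.9% of the 148, against 2.57% of all) and 5 rose (31.5% of all). Many member bins, such as the decoy bins from 4500001 and 23600001, were covered in KO mock alone and could only fall with PMA in KO cells. Bins covered in WT mock alone could likewise only fall in WT cells, and bins covered in 1 PMA group alone could only rise. These counts are therefore partly built in. The median difference of all bins was 0.21 in KO and 0.65 in WT cells, and of the member bins −0.61 in KO and 0 in WT cells. With each library centred on its median bin, 34 were called lower and 1 higher in KO cells and 54 lower and 0 higher in WT cells. Each was covered in at least 1 of the libraries compared. Centring moves every difference of a comparison by the same constant, so bins with a difference near 0 before it can be called lower. Without KO PMA replicate 1 or 2 the number that fell in KO cells was 29 or 27, and the number that rose 3 or 4; without WT PMA replicate 1 or 2 the number that rose was 2 or 3. The number that fell in WT cells was 13 without WT PMA replicate 1 and 17 without WT PMA replicate 2, and without WT mock replicate 2 the number that rose was 1.

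The bins that fell furthest with PMA in KO cells were on the decoy. The bin from 22800001 covered nothing in KO PMA and 14.3 and 18.2 kb in KO mock, with 0.5 kb in both WT PMA libraries and 3.26 and 9.27 kb in WT mock (KO PMA against KO mock −4.10 ± 0.43 SE, limma adjusted p = 0.00422; WT PMA against WT mock −2.14 ± 0.43 SE, limma adjusted p = 0.0167). The neighbouring bins from 22100001 and 22200001 fell by 3.26 and 3.16 in KO cells and covered nothing in the 4 WT libraries. The first bin of GL000224.1 fell by 2.93 and the bin of GL000205.1 from 100001 by 2.80 in KO cells. In WT cells the largest falls were 2.66 in that bin of GL000205.1, 2.44 in the decoy bin from 8200001, 2.14 in the decoy bin from 12500001 and 2.07 in the first bin of GL000224.1. The few bins that rose were all on the decoy and small. In WT cells they were those from 6500001 (1.59), 2000001 (0.96), 7700001 (0.84), 6300001 (0.54) and 6100001 (0.47), of which the last 2 had the opposite sign in centred libraries (−0.22 and −0.29). In KO cells the one that rose was that from 32100001 (0.81). It was covered in KO PMA alone, and the bins from 2000001 and 6300001 in WT PMA alone. Each passed the 2-library filter through that group, so these rises are no independent support.

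Between genotypes, 45 member bins rose in KO mock against WT mock (30.4% of the 148, against 17.5% of all bins) and 15 fell (10.1% of the 148, against 3.71% of all). Many of those that rose, such as the decoy bins from 4500001 and 23600001, were covered in KO mock alone. Some that fell, such as those from 5300001 and 5400001, were covered in WT mock alone. Such bins passed the 2-library filter through the group where they are high, so both counts are partly built in. In KO PMA against WT PMA 10 rose (6.76% of the 148, against 15.7% of all) and 8 fell (5.41%, against 21.6% of all). The median difference of all bins was 0.29 in mock-treated and −0.21 in PMA-treated cells. With each library centred on its median bin, 13 rose and 11 fell in mock-treated, and 19 rose and 3 fell in PMA-treated cells. With equal region numbers per library 27 rose and 19 fell in mock-treated cells. Without WT mock replicate 1 or 2 the number that rose in mock-treated cells was 20 or 29, and without KO mock replicate 1 or 2 the number that fell was 8. Without KO PMA replicate 2 the number that fell in PMA-treated cells was 5.

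After the bin of GL000220.1 that holds the block, the largest rises in KO mock were on the decoy. The bin from 22200001 covered 10.3 and 11.9 kb in KO mock and nothing in WT mock (3.59 ± 0.32 SE, limma adjusted p = 0.002). The bin from 22100001 covered 11.7 and 9.81 kb in KO mock and nothing in WT mock (3.55 ± 0.26 SE, limma adjusted p = 0.00103). These adjoining bins were thus called in both KO mock libraries and in neither WT mock library. The bins from 12100001 (2.75) and 18900001 (2.03) followed. The largest falls in KO mock were in the first bin of GL000214.1 (−2.59) and in the decoy bins from 12500001 (−2.43), 26100001 (−2.06), 8200001 (−1.69) and 5400001 (−1.55). In KO PMA against WT PMA the decoy bins from 17400001 (2.5), 17500001 (1.68), 100001 (1.29) and 31400001 (1.12) rose, and the first bins of GL000219.1 (−1.81), GL000214.1 (−1.67) and GL000195.1 (−1.47) and the decoy bins from 26100001 (−1.28) and 6100001 (−1.06) fell. The bin from 31400001 was covered in KO PMA alone, and that from 5400001 in WT mock alone. Each passed the 2-library filter through that group, so these calls are no independent support. The bin of GL000195.1 had a difference of 0.29 among regions at least 6-fold over input, and its call was lost without KO PMA replicate 2 (−1.26).

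The mitochondrial genome was covered almost wholly in KO PMA cells and hardly elsewhere. It had 1 region in each KO PMA library, none in KO mock, 1 in WT PMA replicate 2 and none in WT PMA replicate 1 or WT mock. The KO PMA regions ran from base 93 to base 16569 (16476 bp) and from base 71 to base 16564 (16493 bp), nearly the whole circle. They held 2892 and 2986 tags per 10 M, 176 and 181 tags per kb, at 3.29-fold and 3.39-fold over input by the authors' values. The WT PMA region was a single window from 10069 to 10569 with 25.9 tags per 10 M, 2.10-fold over input.

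The 2 KO PMA libraries were thus the ones covered beyond a single window, and MT amounted to 0.364 and 0.446% of the tags inside their regions, close to the 0.334 and 0.419% on all contigs and the decoy together. Covered length rose in KO PMA against WT PMA (3.84 ± 0.19 SE, limma adjusted p = 0.00011) and against KO mock (4.13 ± 0.19 SE, limma adjusted p = 2.51e-05). Where 2.63% of all sequences were called higher in the difference of the PMA effects between genotypes, MT was the 1 called (3.84 ± 0.26 SE, limma adjusted p = 0.000224). The exact permutation test over libraries gave p = 0.333 for KO against WT and p = 0.167 for PMA against mock, the smallest p the ties at 0 bp allow, so this test could not separate the groups. Input density along MT was 53.3 and 53.4 tags per kb in the KO PMA regions, about an order of magnitude above the 5.08 and 5.03 tags per kb of their chromosomal regions. A call of that extent therefore needed 107 tags per kb, and a lower density in the other libraries would leave no region. Since MT carries no histones, and the input came from WT mock cells, the number of mitochondrial genomes per cell and the amount pulled down cannot be told apart from these lists.

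The difference of the PMA effects between genotypes was also tested on the contigs. Of the 13, 2 had a larger loss with PMA in KO cells (28.9% of all sequences) and 0 the reverse (2.63% of all), with 4 and 1 at an unadjusted p below 0.05 by limma. They were GL000237.1 (−1.67 ± 0.10 SE, limma adjusted p = 0.000204) and GL000225.1 (−1.30 ± 0.35 SE, limma adjusted p = 0.0429), both contigs called almost only in KO mock. GL000237.1 had 0 bp outside KO mock and passed the 2-library filter through that group, so its call is no independent support. The GL000225.1 call was lost under most alternatives, including without either KO PMA library (−1.30 each). The number on the lower side was 1 without WT PMA replicate 1 and 3 without WT mock replicate 1, and centred libraries gave 1 on each side. Among member bins 23 lay on the lower side (15.5% of the 148, against 12.7% of all bins) and 6 on the higher side (4.05%, against 3.81% of all), shares near those of all bins. Centred libraries gave 2 and 9, and without KO mock replicate 1 or 2 the number on the lower side was 40 or 37, and without WT mock replicate 1 it was 15.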

How the data were processed

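γH2AX ChIP-seq of K562 cells gave 8 libraries in 4 groups and 1 input library, grouped and numbered by their titles. The tools were CASAVA 1.4, BWA and HOMER and the build hg19, per the submitters' processing notes; the names GL000220.1, hs37d5 and MT belong to the version of that assembly with a decoy. HOMER regions were called by the authors in each library separately, per the file headers, against the WT mock input, from windows of 500 bp past a Poisson p of 0.001, at least 2-fold over input at p 0.0001, with at most 1 tag per bp. As deposited, the signal of a region is its tags per 10 M tags of the library (M, mega). The deposited tag count of a region is unscaled in 5 libraries. In the other 3 the authors scaled it to the input. The deposited fold is the authors' ratio of tags to input after scaling. The deposited score and p-value of each region are HOMER's own and took no part in the tests. Depth, from the headers, was 15.6 to 27.2 M tags, and shallow libraries call fewer weak windows.

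From the region lists, covered length, region number, summed tags and tags per kb were computed per library for each sequence. Single values were compared by two-sided exact permutation tests over libraries within the other factor (36 labellings, smallest p 0.0556). Covered length per 100-kb bin and per sequence, present in at least 2 libraries, was tested with limma 3.58.1 (R 4.3.3) on log2(covered bp + 1000), 1 fit of 4 groups over all features, with Benjamini-Hochberg adjustment at 0.05 over the whole table; bins and sequences on contigs, decoy and MT are printed. A feature covered in 1 group alone passed the 2-library filter through that group, so its call there is no independent support. The scripts were tested on simulated data. Python 3.11.15 with scipy 1.17.1, pandas 2.3.3 and numpy 2.4.6 did the rest.

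The members, tests and lists were chosen with earlier results of these data known. Named in full were the sum over contigs and decoy, GL000220.1, hs37d5, MT and the 6 other contigs with the highest mean covered length. Also named were, per comparison, the 5 contigs or bins that moved most each way past the threshold, and up to 3 stretches called in the most libraries on GL000220.1, hs37d5 and MT. Alternatives were 1 tag threshold for all libraries, regions at least 6-fold or at least 1000 bp, equal region numbers, a pseudocount of 100 bp, no low filter, centred libraries, bins of 50 kb, the replicate number as a block, and leaving out each library. Sequences of the contigs, decoy and MT were not used here.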

Additional observations from a re-analysis of the deposited data

Results flagged for a closer look

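The response to PMA differed between genotypes, by limma's test of the difference of the 2 effects, for 13 of the features named. A positive value means that covered length moved further up, or less far down, with PMA in KO than in WT cells, on the log2(bp + 1000) scale. On MT the difference was 3.84. On GL000225.1 it was -1.30 and on GL000237.1 it was -1.67. GL000237.1 was covered in KO mock alone and passed the 2-library filter through that group. For the bin of GL000220.1 from 100001 it was -2.05 (limma adjusted p = 0.00542), but -0.24 with a pseudocount of 100 bp and -1.29 in centred libraries, both past the threshold no longer.

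On the decoy, the bins from 22100001 and 22200001 had differences of -3.26 and -3.16, those from 12100001 and 18900001 of -2.75 and -1.74. On the other side stood the bins from 12500001 (2.14), 17500001 (1.56), 5400001 (1.55), 5300001 (1.43) and 4200001 (0.58). The bins from 12500001, 5400001, 5300001 and 4200001 covered nothing in either KO group, so that their differences come from the WT libraries alone. Those from 5400001, 5300001 and 4200001 were covered in WT mock alone and passed the 2-library filter through that group. Their calls are therefore no independent support, and the bin from 4200001 held only 0.5 kb in each WT mock library.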

How the results depend on the processing

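The differences between PMA and mock in contig total, share, ratio to the chromosomes, rDNA contig and MT kept their direction under each alternative that gave a value, as did the KO against WT differences in share, ratio, summed tags, rDNA contig and MT. For covered length PMA against mock ranged from -1.83 to -0.99 on the log2 scale. The KO against WT difference in covered length turned round with regions at least 6-fold over input (-0.12), at least 1000 bp (-0.041), equal region numbers (-0.19) and, an alternative added after seeing the data, GL contigs alone (-0.46), and that in region number at 6-fold (-0.12) and with equal region numbers (-0.19). With GL contigs alone, KO mock against WT mock was -0.038. No region on GL000220.1 or MT reached 6-fold, so these gave no value there. KO PMA against WT PMA on GL000220.1 was -0.31 with regions of at least 1000 bp, and from -0.073 to 0.264 without 1 library at a time, turning round without KO PMA replicate 2 (-0.025) and without WT PMA replicate 1 (-0.073). Further reversals were 0.29 for the first bin of GL000195.1 in KO PMA against WT PMA, and 0.085 for GL000214.1 in WT and 0.60 for GL000224.1 in KO cells with PMA, all at 6-fold, and -0.29 and -0.22 for the decoy bins from 6100001 and 6300001 in WT cells with PMA, in centred libraries.

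Counts of calls depended on the settings. Each is given as higher and lower in member bins, in the order KO mock against WT mock, KO PMA against WT PMA, WT PMA against WT mock, KO PMA against KO mock and the difference of the PMA effects. As reported they were 45 and 15, 10 and 8, 5 and 28, 1 and 51, and 6 and 23. At 6-fold they were 1 and 4, 2 and 2, 0 and 4, 1 and 1, and 4 and 1. At 1000 bp they were 15 and 6, 5 and 3, 1 and 8, 3 and 17, and 5 and 12. In centred libraries they were 13 and 11, 19 and 3, 0 and 54, 1 and 34, and 9 and 2. With equal region numbers they were 27 and 19, 5 and 4, 1 and 26, 2 and 33, and 9 and 15. One tag threshold changed the second comparison to 11 and 5, the third to 2 and 17 and the fourth to 4 and 48. Bins of 50 kb gave 3 higher in the fourth and 10 higher in the fifth, and a pseudocount of 100 bp gave 3 higher in the fourth.

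For whole contigs and the decoy, in the same order, the counts as reported were 7 and 3, 2 and 4, 0 and 5, 0 and 10, and 0 and 2. At 6-fold they were 0 and 2, 0 and 2, 0 and 1, 0 and 0, and 1 and 0, at 1000 bp 3 and 3, 1 and 3, 0 and 5, 0 and 5, and 2 and 2, and in centred libraries 3 and 5, 1 and 5, 0 and 13, 0 and 13, and 1 and 1. Of the 13 lower in the third, 4 had 0 bp in every WT library and were moved by the centring constant alone. Equal region numbers gave 0 higher in the second and 0 lower in the fifth, a pseudocount of 100 bp 1 higher in the second, and no filter on low values 1 lower in the fifth.

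Without 1 library at a time, member bins ranged from 20 to 45 higher and 8 to 11 lower in the first comparison, 7 to 12 and 5 to 10 in the second, 1 to 6 and 13 to 28 in the third, 1 to 4 and 27 to 52 in the fourth, and 5 to 8 and 15 to 40 in the fifth. Whole contigs ranged from 5 to 7 and 1 to 3, 0 to 2 and 4 to 5, 0 to 0 and 5 to 6, 0 to 0 and 9 to 11, and 0 to 1 and 1 to 3. A group left with 1 library is assumed to vary like the others. Same-numbered libraries of different groups had correlations of their deviations from -0.0586 to 0.164, so the numbers do not pair them; with the replicate number as a block, 4 contigs were lower in the fifth comparison and the other counts stayed within 1.5 times. Beyond these, single contigs and bins lost their call in 205 of 1413 combinations with an alternative and changed sign in 9. The cause of these changes was not tested. At 2 libraries per group the exact tests cannot pass the threshold, and stretches under the caller's tag threshold have no value.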
